A study of Mus musculus with 2 samples.

Results

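The genes described here are 7 delta protocadherins of the mouse, Pcdh7, Pcdh8, Pcdh9, Pcdh10, Pcdh17, Pcdh18 and Pcdh19, out of 56982 features in each of 2 single-cell libraries of the embryonic hindlimb. They were chosen by name, and the names were put forward with earlier results of these data in view, among them a higher level of Pcdh17 and Pcdh19 in anterior mesenchyme. Each symbol matched a single feature of each library. On GRCm39, with GENCODE M39, Pcdh7 lies at chr5:57875004-58290581, Pcdh8 at chr14:80004215-80008752, Pcdh9 at chr14:93250846-94128152 and Pcdh17 at chr14:84680965-84776442. Pcdh10 lies at chr3:45332833-45390058, Pcdh18 at chr3:49697731-49711830 and Pcdh19 at chrX:132483609-132589819. The annotation places at least 1 other gene within all of them but Pcdh18, and no source used here gives whether the counting used strand. UMIs of an overlapping or antisense gene cannot be told apart from those of the protocadherin.

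Delta protocadherins are single-pass membrane proteins with cadherin repeats outside the cell, and they mediate homophilic adhesion between cells. The delta-1 branch is represented by Pcdh7 and Pcdh9 and the delta-2 branch by Pcdh8, Pcdh10, Pcdh17, Pcdh18 and Pcdh19. Several delta-2 proteins carry a site in the cytoplasmic tail that binds the WAVE complex, a regulator of branched actin, and the family is best known for cell sorting and axon growth in the nervous system. In the limb bud, position is marked by transcription factors: Pax9 and the Alx genes anteriorly, Hand2 posteriorly, Meis1 and Meis2 proximally, Hoxa13 and Hoxd13 distally, while Isl1 marks early posterior hindlimb mesenchyme and Sox9 cartilage progenitors.

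Each library came from the hindlimb of 1 FVB embryo at E11.5, so differences between embryos lack replicates and were not tested. At the H11 insertion site the dual-enSERT-2 embryo carried B-ZRS-mCherry, then SI, then ZRS404G>A-eGFP-B, and the dual-enSERT-1 embryo carried ZRS-mCherry and ZRS404G>A-eGFP. In both embryos the ZRS, the limb enhancer of Shh, thus drove mCherry and its variant allele drove eGFP, and neither embryo was free of reporters. What B and SI stand for is not spelled out in the labels. The libraries differ in construct, embryo and preparation, which cannot be told apart.

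The dual-enSERT-2 library held 8885 barcodes and 184301053 UMIs, and dual-enSERT-1 held 20508 barcodes and 298653282 UMIs, with 49 barcodes present in both. The cells kept for analysis numbered 6472 and 16041, and their median depth was 25841.5 and 14000 UMIs. Clusters named from marker genes gave 3805 and 13101 mesenchyme-like cells. Small classes were muscle-like (68 and 549 cells), endothelial-like (104 and 202), ectoderm-like (181 and 430) and macrophage-like (56 and 62). Erythroid-like cells numbered 1637 and 245, and 621 and 1452 cells stayed unnamed. Neither the 7 genes nor the reporters nor Shh entered the clustering. A level is given in CPM, a gene's UMIs scaled to the total UMIs of its group of cells, with an exact Poisson 95% interval. Intervals of levels, ratios and shares cover counting error only. Each 3' molecule is counted as 1 UMI and the values are not divided by length, so levels are compared within a gene.

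All 7 genes were detected in mesenchyme. Pcdh7 stood at 162 CPM (159.8 to 165) in dual-enSERT-2 and 137 CPM (135 to 139) in dual-enSERT-1. Pcdh18 stood at 45.05 and 57.0 CPM, Pcdh17 at 34.8 and 18.7 CPM, and Pcdh19 at 12.3 and 8.62 CPM. Those 4 genes differed between the libraries by less than 2-fold. Pcdh9 stood at 12.96 and 84.3 CPM, Pcdh10 at 3.30 and 33.0 CPM, and Pcdh8 at 0.500 and 1.84 CPM. Pcdh8, known from the mouse for its segmental expression in paraxial mesoderm, thus rested on 54 and 378 UMIs.

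With each cell thinned to 5000 UMIs, Pcdh7 was seen in 42.0% of dual-enSERT-2 and 35.8% of dual-enSERT-1 mesenchyme-like cells, and Pcdh18 in 19.9% and 24.0%. Pcdh17 was seen in 12.8% and 6.88%, and Pcdh19 in 5.21% and 3.48%. Pcdh9 was seen in 4.996% and 18.7%, Pcdh10 in 1.94% and 10.6%, and Pcdh8 in 0.266% and 1.01%. In erythroid-like cells, which should lack these genes, no member passed 1.10% and 1.22% of thinned cells, or 2.11 and 3.06 CPM, and Pcdh7 was the highest in both. Pcdh8 was in 0.0613% and 0% of them and Pcdh10 in 0% and 0.816%. Before thinning, mesenchyme-like cells had medians of 27329 and 14576 UMIs, against 27305 and 19408 UMIs in erythroid-like cells. Thinning left out 42 and 123 mesenchyme-like and 5 and 0 erythroid-like cells as too shallow. Without thinning, Pcdh7 was seen in 77.7% and 56.6% and Pcdh18 in 64.9% and 51.9% of mesenchyme-like cells, and Pcdh7 in 4.95% and 4.08% of erythroid-like cells.

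Across the other cell classes, 3 genes were at least 2-fold above mesenchyme in both libraries in 4 of 35 pairs of gene and class. The share of all features above mesenchyme by this rule was not taken, so nothing is read from that count. In endothelial-like cells Pcdh17 reached 332 CPM (309.6 to 355) in dual-enSERT-2, 9.53 (8.83 to 10.3) times its mesenchyme level. In dual-enSERT-1 it reached 283 CPM (269 to 297), 15.2 (14.3 to 16.1) times the mesenchyme level. Endothelial-like cells were the class with the highest Pcdh17 in both libraries, and 64.8% and 61.4% of them showed a UMI after thinning. In muscle-like cells Pcdh17 was 162 CPM (145 to 179) and 225 CPM (216 to 234), 4.64 (4.15 to 5.17) and 12.0 (11.4 to 12.7) times mesenchyme. Pcdh19, the X-linked gene whose human counterpart is mutated in an epilepsy of girls, was highest there, at 89.1 CPM (77.1 to 102) and 92.6 CPM (87.0 to 98.5), 7.26 (6.22 to 8.43) and 10.7 (9.93 to 11.6) times mesenchyme. Of muscle-like cells, 30.9% and 31.8% showed Pcdh19 after thinning. With at least 2000 genes per cell, or at most 5% mitochondrial UMIs, 2 of the 4 pairs passed, and the muscle pairs could not be compared because no dual-enSERT-2 cluster was then muscle-like.

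Ectoderm-like cells were the class with the highest Pcdh7, at 503 CPM (481 to 526) in dual-enSERT-2 and 470.0 CPM (453 to 487) in dual-enSERT-1, 3.102 (2.96 to 3.25) and 3.43 (3.30 to 3.56) times mesenchyme. Pcdh7 was seen in 66.9% and 61.8% of thinned ectoderm-like cells. Pcdh17 was lower there than in mesenchyme, at 2.36 and 1.87 CPM. Pcdh9 stood at 18.1 and 34.8 CPM in ectoderm-like cells, above mesenchyme in dual-enSERT-2 and below it in dual-enSERT-1. Pcdh18 was highest in mesenchyme in both libraries, with ectoderm-like cells next at 29.3 and 24.5 CPM, muscle-like cells at 17.0 and 17.8 CPM and endothelial-like cells at 4.44 and 3.16 CPM. Pcdh10 was also highest in mesenchyme, and in endothelial-like cells it had 0 and 11 UMIs. In macrophage-like cells the libraries differed, and Pcdh7 had 124 UMIs (77.4 CPM) in dual-enSERT-2 and 8 UMIs (6.01 CPM) in dual-enSERT-1.

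**Figure D1:**
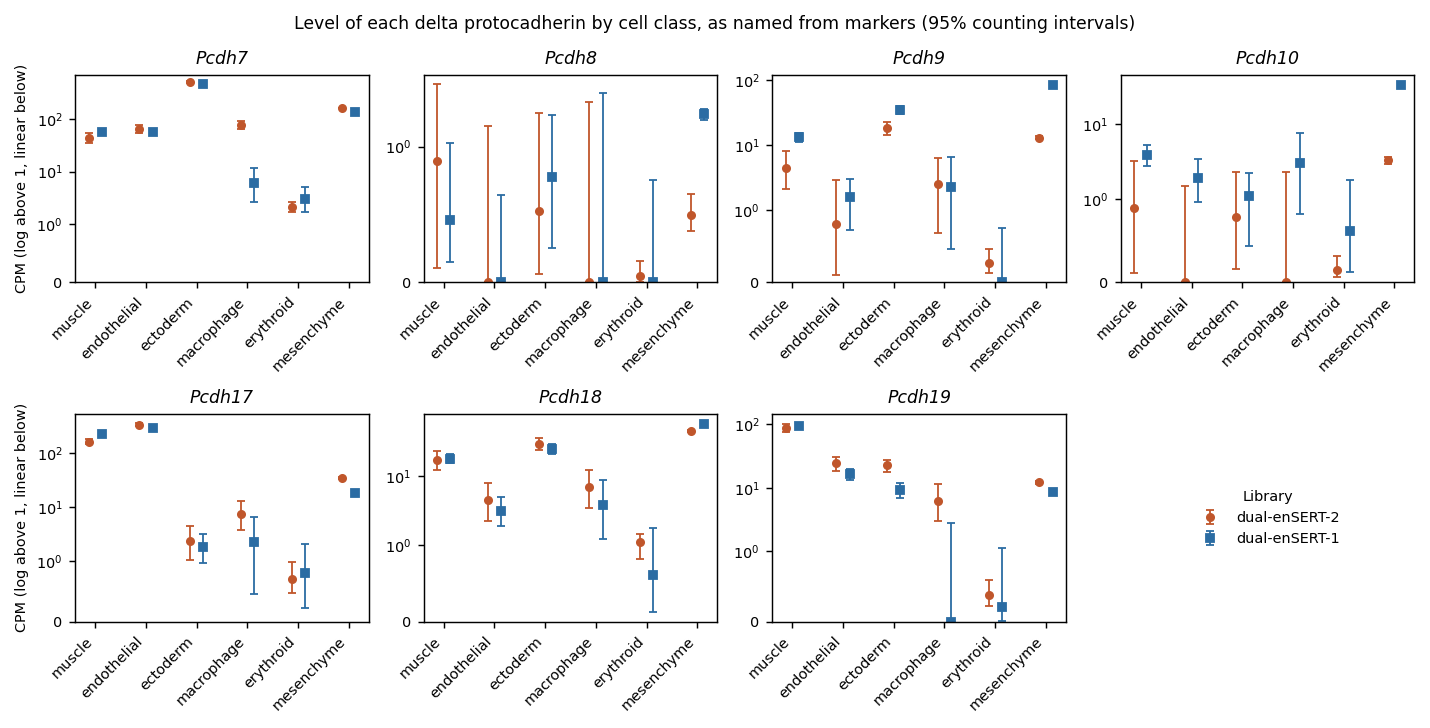
Level of each gene in CPM (vertical axis, log scale above 1 and linear below) by cell class (horizontal axis) in dual-enSERT-2 (orange circles) and dual-enSERT-1 (blue squares), with exact Poisson 95% intervals for counting error. Pcdh17 is highest in endothelial-like, Pcdh19 in muscle-like and Pcdh7 in ectoderm-like cells, whereas Pcdh9 and Pcdh10 in mesenchyme stand at 12.96 and 3.30 CPM in dual-enSERT-2 and at 84.3 and 33.0 CPM in dual-enSERT-1.

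Position along the anterior-posterior axis was read from UMIs in thinned mesenchyme-like cells. Anterior cells had a UMI of Pax9, Alx1 or Alx4 and none of Hand2 (188 cells of dual-enSERT-2 and 671 of dual-enSERT-1), and posterior cells had Hand2 and none of those 3 (1464 and 6003 cells). A gene counted as measured at 5 CPM or more in either group in both libraries, and as different when its log2 fold, with 1 CPM added to each level, was 1 or more in the same direction in both. Of 5 measured members, 2 were higher in anterior cells, Pcdh17 and Pcdh19, and none was lower. Of 10431 measured features, 0.556% were higher and 0.623% lower in anterior cells by the same rule. As the anterior excess of both genes was known when they were chosen, nothing is read from that share.

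Pcdh17, a delta-2 protocadherin with a known part in axon extension and synapse assembly in the mouse brain, stood in dual-enSERT-2 at 76.2 CPM in anterior and 12.3 CPM in posterior cells, a ratio of 6.19 (95% interval 5.43 to 7.07). In dual-enSERT-1 it stood at 48.6 CPM in anterior and 10.3 CPM in posterior cells, a ratio of 4.71 (95% interval 4.23 to 5.24). The log2 folds were 2.54 and 2.13, and no single cell held more than 6.31% and 2.69% of the anterior UMIs. After thinning, 22.9% of anterior and 4.51% of posterior cells of dual-enSERT-2 showed Pcdh17, and 17.0% and 4.18% of those of dual-enSERT-1. Pcdh19 stood at 27.9 CPM in anterior and 5.57 CPM in posterior cells of dual-enSERT-2, a ratio of 5.02 (95% interval 4.05 to 6.19). In dual-enSERT-1 the levels were 23.8 CPM in anterior and 4.01 CPM in posterior cells, a ratio of 5.94 (95% interval 5.05 to 6.98). The anterior levels of both genes were thus several-fold above the posterior ones in each library, and the intervals of the 2 libraries overlapped for Pcdh19 (log2 folds 2.14 and 2.31) but not for Pcdh17.

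Pcdh7, Pcdh9, Pcdh10 and Pcdh18 differed by less than 2-fold along this axis. Pcdh18 had log2 folds of 0.29 and 0.28, Pcdh10 of 0.51 and 0.21, Pcdh7 of -0.30 and -0.05, and Pcdh9 of 0.53 and -0.14. Pcdh8 had no UMI in the anterior cells of dual-enSERT-2 and 6 in those of dual-enSERT-1, against 40 and 247 in posterior cells. As Pcdh17 and Pcdh19 are high in endothelial- and muscle-like cells, markers of those classes were read in the same groups. The summed level of 8 endothelial markers was 21.2 CPM in anterior and 18.0 CPM in posterior cells of dual-enSERT-2, and 19.4 and 19.4 CPM in dual-enSERT-1, beside 3622 and 3829 CPM in endothelial-like cells. The summed level of 8 muscle markers was 0.770 CPM in anterior and 1.18 CPM in posterior cells of dual-enSERT-2, and 5.41 and 4.21 CPM in dual-enSERT-1, beside 1166 and 1111 CPM in muscle-like cells. In the anterior cells of dual-enSERT-2, 6 of the 8 muscle markers were at 0, Pax3, Pax7, Myf5, Myod1, Myog and Mymk, and so were the endothelial markers Kdr and Tie1. In those of dual-enSERT-1 only Pax7 was at 0. Of the 8 endothelial markers, 5 were higher in anterior than in posterior cells of dual-enSERT-2 and 4 in dual-enSERT-1. Of the 8 muscle markers, 1 and 5 were higher. Distal cells, those with Hoxa13 or Hoxd13, made up 6.38% of anterior and 22.0% of posterior cells in dual-enSERT-2 and 14.8% and 42.0% in dual-enSERT-1. Within cells without Hoxa13 and Hoxd13 UMIs, the log2 fold of Pcdh17 was 2.50 and 1.72 and that of Pcdh19 2.03 and 1.91. Within distal cells (12 and 99 anterior cells) Pcdh17 had 2.68 and 2.64 and Pcdh19 1.45 and 2.93, the dual-enSERT-2 value of Pcdh19 resting on 3 UMIs. In distal cells the summed muscle markers were 0 CPM in anterior and 0.698 CPM in posterior cells of dual-enSERT-2. They were 16.1 and 3.84 CPM in dual-enSERT-1. The part of muscle or endothelial RNA in the folds of Pcdh17 and Pcdh19 was not tested.

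The promoters of Pcdh17 and Pcdh19 are printed because both genes had a higher pooled level in the anterior group. Those of Pcdh9 and Pcdh10 are printed because both were high with Meis, as the proximal-distal comparison shows. Each is the 250 bases before the RefSeq start site on GRCm38.p6, the build of the RefSeq table, 5′ to 3′ on the strand of the gene. Capitals mark matches to CCAAT or its reverse complement ATTGG, to the GC-box GGGCGG or its reverse complement CCGCCC, and to TATAAA on either strand. Pcdh17 is from chr14:84443313-84443562 on the plus strand, Pcdh19 from chrX:133688994-133689243 on the minus strand, Pcdh9 from chr14:93890680-93890929 on the minus strand and Pcdh10 from chr3:45378148-45378397 on the plus strand. The table holds 2 starts for Pcdh9, of which 1 is shown.
Pcdh17: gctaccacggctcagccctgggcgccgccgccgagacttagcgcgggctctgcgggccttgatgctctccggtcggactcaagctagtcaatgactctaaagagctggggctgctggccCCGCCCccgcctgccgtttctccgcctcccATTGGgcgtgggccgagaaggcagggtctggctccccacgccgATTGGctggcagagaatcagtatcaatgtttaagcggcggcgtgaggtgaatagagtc
Pcdh19: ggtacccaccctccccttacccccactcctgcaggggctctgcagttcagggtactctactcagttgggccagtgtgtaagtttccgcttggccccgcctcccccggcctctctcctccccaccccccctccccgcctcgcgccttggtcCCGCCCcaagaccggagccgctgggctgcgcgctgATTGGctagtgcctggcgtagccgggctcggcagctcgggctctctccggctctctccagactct
Pcdh9: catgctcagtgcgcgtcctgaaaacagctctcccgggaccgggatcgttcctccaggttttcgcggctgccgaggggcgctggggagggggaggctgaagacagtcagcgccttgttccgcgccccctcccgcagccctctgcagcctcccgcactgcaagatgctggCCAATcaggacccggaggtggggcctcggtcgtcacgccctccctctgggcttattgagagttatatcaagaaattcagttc
Pcdh10: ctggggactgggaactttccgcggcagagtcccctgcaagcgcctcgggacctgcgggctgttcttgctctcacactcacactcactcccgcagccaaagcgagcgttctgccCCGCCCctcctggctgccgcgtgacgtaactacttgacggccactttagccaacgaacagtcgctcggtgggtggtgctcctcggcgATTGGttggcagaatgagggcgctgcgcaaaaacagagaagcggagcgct
The CCAAT letters were chosen after the sequences had been seen, and they matched in 6 of 7 members, in all but Pcdh7, against 33.8% of 32851 promoters of the same length. The GC-box matched in 4 members, Pcdh10, Pcdh17, Pcdh18 and Pcdh19, against 32.7% of promoters. TATAAA matched only in Pcdh8, 30 bases before the start, against 12.4%. The Meis core TGACAG (15.9% of promoters) and the GLI letters GACCACCCA (0.225%) were in none of the 7 windows on either strand, and the E-box CANNTG (66.2%) was only in that of Pcdh19. GC content was 64.8% for Pcdh17, 69.2% for Pcdh19, 63.6% for Pcdh9 and 63.2% for Pcdh10, with a median of 52.4% over all promoters. Each match describes the letters of these windows and nothing about binding.

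The level of both anterior genes followed the number of Hand2 UMIs. In mesenchyme-like cells with 0, 1, 2 and at least 3 Hand2 UMIs per 5000, Pcdh17 stood at 50.4, 16.1, 9.76 and 7.52 CPM in dual-enSERT-2 and at 26.0, 14.0, 8.14 and 7.64 CPM in dual-enSERT-1. Pcdh19 stood at 17.0, 7.22, 4.20 and 2.89 CPM in dual-enSERT-2 and at 12.8, 5.15, 3.88 and 2.76 CPM in dual-enSERT-1. Each added Hand2 UMI went with a lower level of both genes in both libraries. With 0, 1 and 2 UMIs of Pax9, Alx1 and Alx4 together, Pcdh19 stood at 11.6, 20.9 and 46.6 CPM in dual-enSERT-2 and at 7.74, 21.2 and 28.4 CPM in dual-enSERT-1. Pcdh17 stood at 32.8, 64.4 and 67.3 CPM in dual-enSERT-2, and at 16.9, 43.3 and 64.7 CPM in dual-enSERT-1. Pcdh7 had the opposite order in the libraries, at 151 CPM with no Hand2 UMI and 192 CPM with at least 3 in dual-enSERT-2, and at 149 and 110.0 CPM in dual-enSERT-1.

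**Figure D2:**
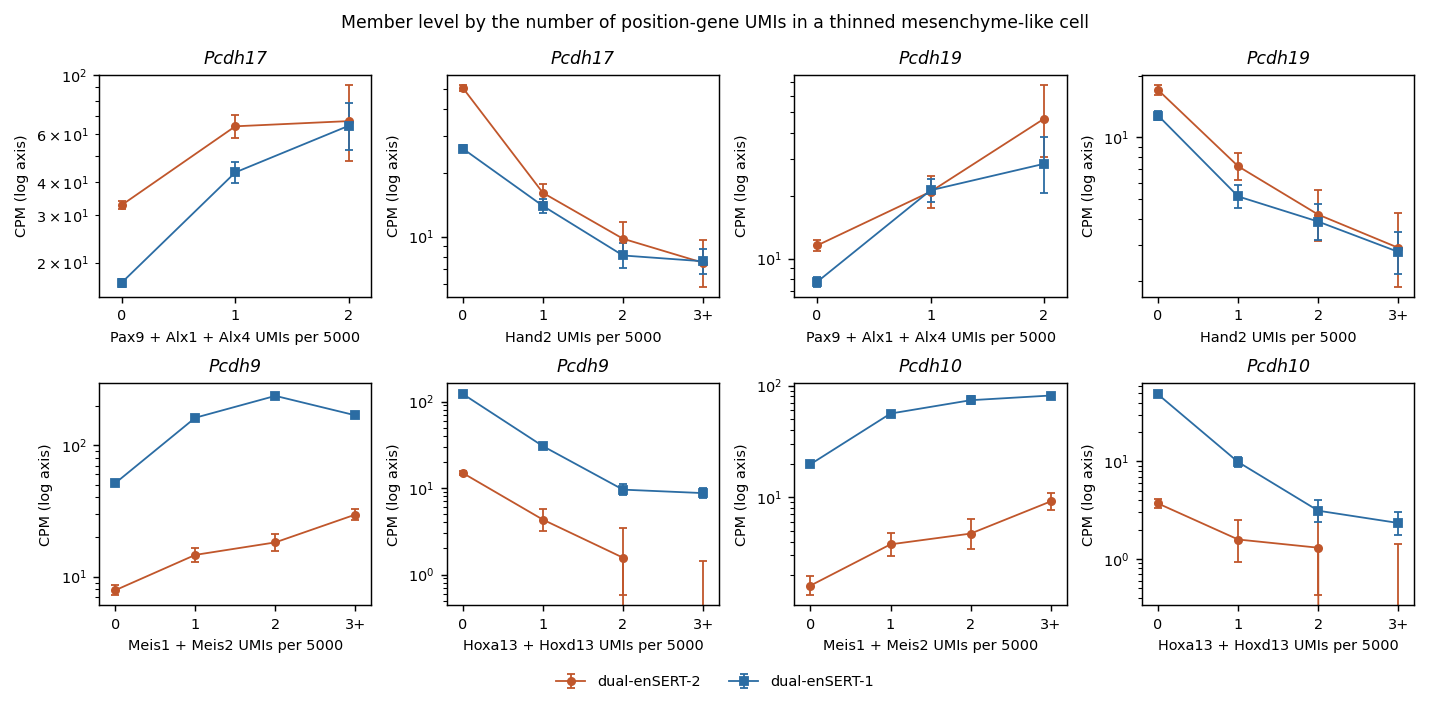
Level in CPM (vertical axes, log scale) of Pcdh17 and Pcdh19 by anterior-gene and Hand2 UMIs (top) and of Pcdh9 and Pcdh10 by Meis and Hox13 UMIs (bottom) in mesenchyme-like cells thinned to 5000 UMIs (horizontal axes) with 95% counting intervals, in dual-enSERT-2 (orange) and dual-enSERT-1 (blue). Pcdh17 and Pcdh19 are lower with more Hand2 and Pcdh9 and Pcdh10 lower with more Hoxa13 and Hoxd13 in both libraries. Bins under 20 cells are left out, and with at least 3 Hox13 UMIs both genes of dual-enSERT-2 are at 0 CPM, where only the upper bound is drawn.

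Along the proximal-distal axis, mesenchyme-like cells with a Hoxa13 or Hoxd13 UMI (586 cells of dual-enSERT-2 and 4177 of dual-enSERT-1) were set against those with neither (3177 and 8801 cells). Of 5 measured members, 2 were lower in distal cells, Pcdh9 and Pcdh19, and none was higher. Of 10351 measured features, 0.792% were lower and 0.512% higher. Pcdh9, a delta-1 protocadherin best known from the nervous system, was 3.09 CPM in distal and 14.9 CPM in other cells of dual-enSERT-2, a ratio of 0.207 (95% interval 0.155 to 0.271). In dual-enSERT-1 it was 17.9 CPM in distal and 122 CPM in other cells, a ratio of 0.146 (95% interval 0.138 to 0.155). Pcdh19 was 4.10 against 13.9 CPM in dual-enSERT-2 and 3.50 against 11.6 CPM in dual-enSERT-1, ratios of 0.295 (0.230 to 0.374) and 0.302 (0.264 to 0.345). The intervals of the 2 libraries overlapped for Pcdh19.

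Pcdh10, a delta-2 protocadherin named OL-protocadherin for its place in the olfactory and limbic system, was lower in distal cells too. It stood at 5.64 CPM in distal and 48.7 CPM in other cells of dual-enSERT-1 (log2 fold -2.90). In dual-enSERT-2 it stood at 1.29 and 3.71 CPM (log2 fold -1.04), under the 5 CPM at which a gene counted as measured. Pcdh17 had log2 folds of -0.86 and -1.29, and Pcdh18 of -0.40 and -0.95. Those 2 were lower in distal cells of both libraries, and only Pcdh17 in dual-enSERT-1 reached 2-fold. Pcdh7, which in Xenopus is NF-protocadherin of the ectoderm, was higher in distal cells of dual-enSERT-2, at 220.1 against 151 CPM, and lower in those of dual-enSERT-1, at 128 against 142 CPM. With 0, 1, 2 and at least 3 UMIs of Hoxa13 and Hoxd13, Pcdh9 stood at 14.9, 4.31, 1.56 and 0 CPM in dual-enSERT-2 and at 122, 30.5, 9.58 and 8.73 CPM in dual-enSERT-1. Pcdh19 stood at 13.9, 5.37, 2.61 and 0.769 CPM and at 11.6, 4.95, 2.97 and 2.09 CPM.

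At the proximal end, cells with a Meis1 or Meis2 UMI (1559 and 3681 cells) were set against those without (2204 and 9297 cells). Of 6 measured members, 2 were higher with Meis, Pcdh9 and Pcdh10, and none was lower. Of 10381 measured features, 0.645% were higher and 0.472% lower. Pcdh9 was 20.8 CPM in Meis and 7.85 CPM in other cells of dual-enSERT-2, a ratio of 2.64 (95% interval 2.37 to 2.95), and 177 and 51.3 CPM in dual-enSERT-1, a ratio of 3.45 (3.35 to 3.56). Pcdh10 was 5.90 CPM in Meis and 1.61 CPM in other cells of dual-enSERT-2, a ratio of 3.67 (95% interval 2.91 to 4.65), and 70.5 and 19.7 CPM in dual-enSERT-1, a ratio of 3.57 (3.41 to 3.75). Although the levels of both genes differed widely between libraries, the ratios of Pcdh10 had overlapping intervals. With groups set at 2000 UMIs per cell, the log2 folds of Pcdh10 were 0.99 and 1.58, so that it missed the 2-fold line in dual-enSERT-2. Without thinning they were 1.57 and 2.21, but its level in Meis cells of dual-enSERT-2, 4.37 CPM, was under the 5 CPM minimum. Pcdh9 passed at both settings. Distal cells were 5.90% of Meis and 22.4% of other cells in dual-enSERT-2 and 7.69% and 41.9% in dual-enSERT-1. Among cells without Hoxa13 and Hoxd13 UMIs, the log2 folds of Pcdh9 were 1.06 and 1.09 and those of Pcdh10 1.32 and 1.09.

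Pcdh8 showed the steepest ratio with Meis on few UMIs. It had 45 UMIs in Meis and 8 in other cells of dual-enSERT-2, a ratio of 8.59 (95% interval 4.01 to 21.1), and 332 and 45 in dual-enSERT-1, a ratio of 20.9 (95% interval 15.2 to 29.2). Its dual-enSERT-2 level of 1.05 CPM in Meis cells was under the 5 CPM minimum. Pcdh18 was higher with Meis in both libraries by less than 2-fold, at 54.9 against 38.7 CPM and 83.9 against 47.5 CPM. Pcdh17 (log2 folds -0.21 and 0.55), Pcdh7 (-0.31 and 0.27) and Pcdh19 (0.26 and -0.20) differed in sign between the libraries. When both axes were crossed, Pcdh9 in dual-enSERT-1 was highest in posterior Meis cells at 219 CPM and lowest in distal cells that were neither anterior nor posterior at 10.4 CPM. In dual-enSERT-2 it was highest in anterior Meis cells at 24.8 CPM, with posterior Meis cells at 20.01 CPM. Pcdh17 was 85.9 CPM in anterior and 9.83 CPM in posterior Meis cells of dual-enSERT-2 and 42.4 and 21.3 CPM in those of dual-enSERT-1. Within Meis cells of dual-enSERT-1 its anterior excess was thus just under 2-fold.

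**Figure D3:**
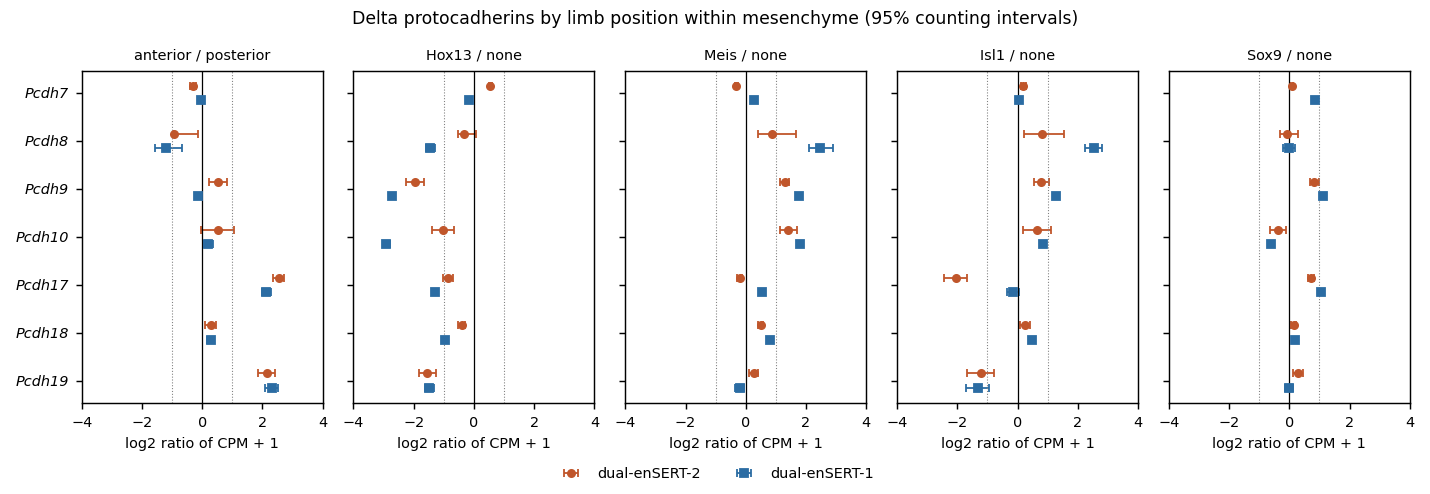
Log2 ratio of CPM with 1 CPM added (horizontal axes) for each gene in each contrast of mesenchyme-like cells in dual-enSERT-2 (orange) and dual-enSERT-1 (blue), with 95% counting intervals. Pcdh17 and Pcdh19 stand at 2 or more in anterior over posterior cells of both libraries, and Pcdh9 stands at -1.96 and -2.70 in distal over other cells.

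Isl1 marks the posterior and proximal hindlimb field. Mesenchyme-like cells with an Isl1 UMI (206 and 794 cells) were set against those without (3557 and 12184 cells), and of 6 measured members 1 was lower, Pcdh19, and none higher. Of 10383 measured features, 0.337% were lower and 0.308% higher. Pcdh19 was 4.87 CPM in Isl1 and 12.7 CPM in other cells of dual-enSERT-2, a ratio of 0.383 (95% interval 0.255 to 0.553) from 29 UMIs, and 2.98 and 8.97 CPM in dual-enSERT-1, a ratio of 0.332 (0.231 to 0.464) from 35 UMIs. With doublets kept, or with levels averaged over cells, no member passed, and with 2 UMIs needed for a group the members that passed were Pcdh8 and Pcdh9. The share of cells with Hand2 was 75.7% in Isl1 and 38.0% in other cells of dual-enSERT-2 and 73.8% and 45.4% in dual-enSERT-1, and its part in the Pcdh19 difference was not tested. Pcdh17 was 8.06 against 36.4 CPM in dual-enSERT-2, and 16.7 against 18.8 CPM in dual-enSERT-1, giving log2 folds of -2.04 and -0.16. The 2 anterior genes thus both stood lower with Isl1 in dual-enSERT-2, and Pcdh19 did so in dual-enSERT-1. Pcdh8 was 11.9 against 1.23 CPM in dual-enSERT-1, a ratio of 9.70 (95% interval 7.81 to 12.0), and 1.51 against 0.432 CPM in dual-enSERT-2. Pcdh9 had log2 folds of 0.79 and 1.29 and Pcdh10 of 0.65 and 0.85, both higher with Isl1 in each library. The share of cells with Meis was 56.8% in Isl1 and 40.5% in other cells of dual-enSERT-2. In dual-enSERT-1 it was 63.4% and 26.1%. Its part in the values of Pcdh8, Pcdh9 and Pcdh10 was not tested.

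Between cells with a Sox9 UMI (1019 and 6105 cells) and without (2744 and 6873 cells), none of 5 measured members differed by 2-fold in both libraries. Of 10376 measured features, 0.231% were higher and 0.193% lower with Sox9. Pcdh9 came nearest, at 19.5 against 10.5 CPM in dual-enSERT-2 and 121 against 55.2 CPM in dual-enSERT-1. Its log2 folds were 0.83 and 1.12, and it passed without thinning or with 2 UMIs needed for a group. Pcdh17 was 49.4 against 29.4 CPM and 26.7 against 12.3 CPM, log2 folds of 0.73 and 1.06. Both genes were higher with Sox9 in both libraries. Distal cells were 6.18% of Sox9 and 19.1% of other cells in dual-enSERT-2 and 23.6% and 39.9% in dual-enSERT-1. Meis cells were 54.8% and 36.5% in dual-enSERT-2 and 31.2% and 25.8% in dual-enSERT-1. No member passed within distal cells or within cells without Hoxa13 and Hoxd13 UMIs. The part of Meis cells in these values was not tested. With at least 3 Sox9 UMIs, Pcdh17 reached 66.6 CPM in dual-enSERT-2 and 36.6 CPM in dual-enSERT-1, and Pcdh7 167 and 237 CPM. Pcdh7 had log2 folds of 0.08 and 0.86 with Sox9. Pcdh10 was lower with Sox9 in both libraries, at 2.53 against 3.60 CPM and 25.2 against 39.1 CPM, log2 folds of -0.38 and -0.62.

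The study's reporters and Shh gave no member a 2-fold difference in both libraries. Cells with a Shh UMI (109 and 290 cells) were set against posterior distal cells, with Hand2 and Hoxa13 or Hoxd13 UMIs, that had none (296 and 2376 cells). None of 3 measured members passed, and of 10342 measured features 0.348% were higher and 0.251% lower. Pcdh7 was 225 against 215 CPM in dual-enSERT-2 and 166 against 122 CPM in dual-enSERT-1, Pcdh18 30.8 against 38.4 CPM and 42.6 against 32.2 CPM. Pcdh10 in dual-enSERT-1 had a log2 fold of 1.04 from 63 UMIs in Shh cells, of which 1 cell held 17.5%, and its sign turned at 2000 UMIs per cell and without thinning. Cells with eGFP and no mCherry UMI (253 and 2669 cells) were set against cells with mCherry (276 and 1257 cells). None of 5 measured members passed, and of 10304 measured features 0% were higher and 0.0194% lower. Pcdh9 was 9.21 against 7.16 CPM in dual-enSERT-2 and 55.7 against 25.6 CPM in dual-enSERT-1, log2 folds of 0.32 and 1.09. Distal cells were 28.5% of the eGFP-alone and 30.8% of the mCherry cells of dual-enSERT-2 and 45.6% and 62.5% of those of dual-enSERT-1. The part of that difference in the Pcdh9 value was not tested.

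Clusters of mesenchyme-like cells, found without the 7 genes, spread their levels widely. Among 10 clusters of dual-enSERT-2 and 19 of dual-enSERT-1, Pcdh17 ranged from 7.64 to 114 CPM (median 24.7) and from 2.65 to 75.0 CPM (median 9.06). Pcdh19 ranged from 1.64 to 37.0 CPM and from 1.28 to 26.3 CPM. Both were highest in the same cluster of dual-enSERT-2, cluster 5 with 347 cells, which was also the cluster with the highest Alx1 and Alx4 and the lowest Hand2. In dual-enSERT-1 they parted: Pcdh17 was highest in cluster 11 and Pcdh19 in cluster 5. Cluster 11 held 833 CPM of Sox9 and 34.5 CPM of Hand2, and cluster 5 held 93.8 CPM of Sox9, 29.8 CPM of Hand2 and 38.4 CPM of Pax9. Across clusters the Pearson r of log2 levels with Hand2 was -0.94 and -0.62 for Pcdh17 and -0.84 and -0.71 for Pcdh19, a description over 10 and 19 clusters of 1 library each, which share its depth.

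Pcdh9 was highest in cluster 5 of dual-enSERT-2 at 32.2 CPM and in cluster 2 of dual-enSERT-1 at 258 CPM, where Sox9 was 803 CPM. Pcdh10 was highest in cluster 5 of dual-enSERT-2 at 8.53 CPM and in cluster 14 of dual-enSERT-1 at 158 CPM, where Pcdh9 was 25.5 CPM. The clusters with most Pcdh9 and most Pcdh10 were thus not the same in dual-enSERT-1. The r with Meis1 was 0.90 and 0.81 for Pcdh9, 0.90 and 0.88 for Pcdh10 and 0.87 and 0.93 for Pcdh18. Pcdh18 varied least among clusters, from 28.7 to 66.6 CPM and from 27.1 to 98.1 CPM. Pcdh8 was concentrated in 1 cluster of each library, cluster 2 of dual-enSERT-2 at 2.39 CPM and cluster 18 of dual-enSERT-1 at 23.2 CPM. The next clusters stood at 0.417 and 8.79 CPM. Those 2 clusters were the ones with the highest Meis2, at 683 and 1225 CPM. Pcdh7 was highest in cluster 6 of dual-enSERT-2 at 358 CPM, a cluster of 151 cells with the mitochondrial ribosomal RNAs mt-Rnr1 and mt-Rnr2 among its leading genes, and next in cluster 8 at 226 CPM. In dual-enSERT-1 it was highest in cluster 2 at 309 CPM.

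**Figure D4:**
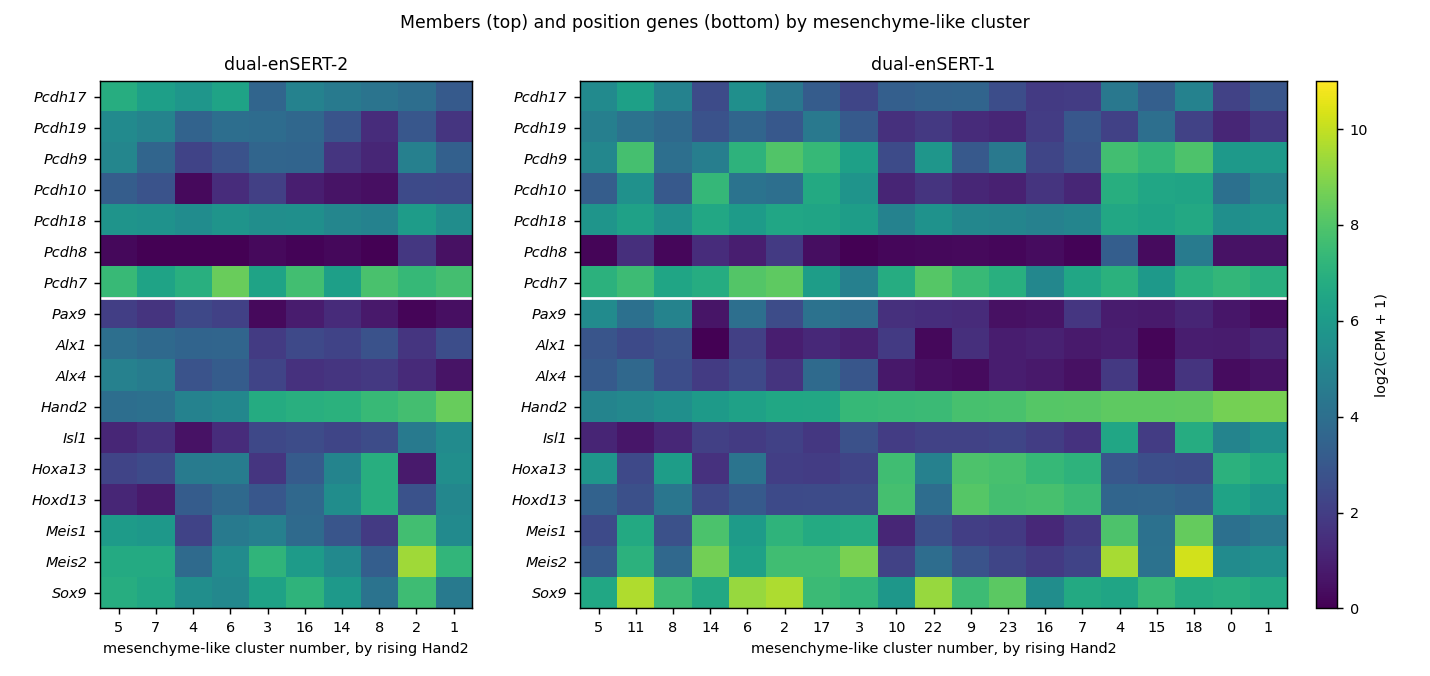
Level as log2(CPM + 1) (colour, 0 to 11) of the 7 genes (upper rows) and the position genes (lower rows) in each mesenchyme-like cluster (columns, ordered by rising Hand2) of dual-enSERT-2 (left) and dual-enSERT-1 (right). Pcdh17 and Pcdh19 are brightest toward the low-Hand2 end, and Pcdh8 is visible in the clusters with the highest Meis2.

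Genes with the most similar pattern were ranked over 13 groups of cells, 8 mesenchyme positions and 5 other classes, by the smaller of the 2 libraries' Pearson r of log2 levels, given for dual-enSERT-2 and then dual-enSERT-1. Tcf15, a basic helix-loop-helix factor, led for Pcdh17 and for Pcdh19, among 9150 genes ranked for each. For Pcdh17 the 3 nearest were Tcf15 (0.91 and 0.93), Chst2 (0.86 and 0.85) and Lifr (0.85 and 0.84). For Pcdh19 they were Tcf15 (0.84 and 0.87), Zdbf2 (0.91 and 0.83) and Macrod2 (0.82 and 0.82). Both genes were higher in muscle-like cells than in any mesenchyme group, and likeness within mesenchyme alone was not tested. For Pcdh9 they were Sfrp1 (0.91 and 0.97), Cdon (0.90 and 0.91) and Cep162 (0.89 and 0.90), of which Sfrp1 encodes a secreted Wnt antagonist and Cdon a Hedgehog co-receptor. For Pcdh10 they were Slitrk6 (0.93 and 0.99), Dcx (0.91 and 0.91) and Tbx18 (0.88 and 0.95), of which Tbx18 encodes a T-box factor and Dcx a microtubule-binding protein. For Pcdh18 they were Efnb3 (0.98 and 0.98), Zfp637 (0.98 and 0.99) and Pcolce (0.98 and 0.98), of which Efnb3 encodes an ephrin and Pcolce a procollagen processing enhancer. For Pcdh7 they were Sema3f (0.95 and 0.95), Tmtc3 (0.94 and 0.95) and Mtcl1 (0.93 and 0.98), of which Sema3f encodes a secreted semaphorin. The r values of Pcdh8 were the lowest, with Cntfr (0.79 and 0.80), Osr1 (0.73 and 0.81) and Ebf2 (0.72 and 0.71), of which Osr1 and Ebf2 encode transcription factors.

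The wider adhesion machinery was read from 3 lists. Of 5 further nonclustered protocadherins, 2 were measured in the distal and Meis contrasts. Pcdh15, a protocadherin of inner-ear hair cells, was higher in distal cells (log2 folds 1.998 and 2.38) and lower with Meis (-2.39 and -2.97). Pcdh11x, an X-linked delta-1 gene, was lower in distal cells (-1.73 and -1.97) and higher with Meis (1.22 and 1.43), as Pcdh9 was. Pcdh15 stood at 80.3 and 145 CPM in mesenchyme, and Pcdh1, Pcdh12 and Pcdh20 were under 5 CPM. All 13 partner genes, among them Nckap1, Cyfip1 and Wasf2 of the WAVE complex, were measured. None passed along the anterior-posterior or proximal-distal axes, and the median log2 fold of the list in anterior cells was 0.08 and 0.01, beside 0.04 and -0.01 over all features measured. Dab1, a Reelin pathway adaptor known to bind the Pcdh18 tail, was the exception in other comparisons, being higher with Sox9 (1.20 and 1.56). Of 12 classical cadherin and catenin genes 10 were measured, and Cdh4 (R-cadherin) alone passed, lower with Isl1 (-1.28 and -1.18).

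Single cells seldom showed several members at 5000 UMIs. No member was seen in 36.4% of dual-enSERT-2 and 35.2% of dual-enSERT-1 mesenchyme-like cells, 1 in 44.5% and 38.3%, 2 in 15.6% and 18.9%, 3 in 2.90% and 6.10% and at least 4 in 0.664% and 1.47%. Of 21 pairs of members, Pcdh10 and Pcdh18 alone were seen together more often than the product of their shares in both libraries, counting a pair when the lower bound of that ratio passed 1. A pair also needed a minimum number of cells expected from the product. The share over other pairs of genes was not taken. They were together in 27 and 486 cells, 1.86 (1.23 to 2.70) and 1.47 (1.34 to 1.60) times the product. Within Meis cells the ratios of that pair were 1.49 (0.899 to 2.32) and 1.05 (0.932 to 1.17), and it passed in neither library. Pcdh9 and Pcdh10 were together at 2.19 (0.947 to 4.32) and 1.79 (1.63 to 1.96) times, and Pcdh17 and Pcdh19 at 1.51 (1.07 to 2.07) and 1.19 (0.838 to 1.64) times. Each of those pairs passed in 1 library, Pcdh9 and Pcdh10 in dual-enSERT-1 and Pcdh17 and Pcdh19 in dual-enSERT-2. Within Meis cells the ratios of Pcdh9 and Pcdh10 were 1.58 (0.579 to 3.42) and 0.968 (0.856 to 1.09), neither passing, and those of Pcdh17 and Pcdh19 2.32 (1.46 to 3.50) and 0.935 (0.404 to 1.84), passing in dual-enSERT-2. At 2000 UMIs per cell, or with 2 UMIs needed, Pcdh10 with Pcdh18 did not pass and Pcdh7 with Pcdh17 did. Without thinning, 10 pairs passed.

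Between the libraries, Pcdh9 and Pcdh10 differed most within mesenchyme. In mesenchyme-like cells Pcdh10 was 3.30 CPM in dual-enSERT-2 and 33.0 CPM in dual-enSERT-1, a ratio of 0.1001 (0.0898 to 0.111), and Pcdh9 was 12.96 CPM in dual-enSERT-2 and 84.3 CPM in dual-enSERT-1, a ratio of 0.154 (0.145 to 0.162). Of 6 measured members these 2 were lower in dual-enSERT-2 by 2-fold or more and none was higher, beside 3.05% lower and 0.675% higher of 10961 measured features. Only 0.0912% and 0.274% of measured features had a lower log2 fold than Pcdh10 (-2.98) and Pcdh9 (-2.61). Pcdh17 stood at the other end, 34.8 CPM in dual-enSERT-2 and 18.7 CPM in dual-enSERT-1, a ratio of 1.86 (1.78 to 1.95), and Pcdh19 at 12.3 CPM in dual-enSERT-2 and 8.62 CPM in dual-enSERT-1, a ratio of 1.42 (1.32 to 1.53). Both were higher in dual-enSERT-2 by less than 2-fold. Pcdh7 had a log2 fold of 0.24 and Pcdh18 of -0.33.

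The differences of Pcdh9 and Pcdh10 were seen in all 10 groups of mesenchyme-like cells compared. These groups share cells, so they do not count as separate comparisons. The log2 fold of Pcdh9 ran from -3.05 to -1.97 and that of Pcdh10 from -3.63 to -1.53. In Meis cells Pcdh9 was 20.8 CPM in dual-enSERT-2 and 177 CPM in dual-enSERT-1, and Pcdh10 was 5.90 CPM in dual-enSERT-2 and 70.5 CPM in dual-enSERT-1. The mesenchyme of the libraries also differed in Sox9, at 88.4 CPM in dual-enSERT-2 and 239 CPM in dual-enSERT-1, and in its cartilage target Col2a1, at 12.8 CPM in dual-enSERT-2 and 94.5 CPM in dual-enSERT-1, while Meis1 was 54.8 CPM in dual-enSERT-2 and 61.4 CPM in dual-enSERT-1. In cells without a Sox9 UMI the log2 folds were -2.29 for Pcdh9 and -3.13 for Pcdh10. In ectoderm-, muscle- and endothelial-like cells few members differed by 2-fold. In ectoderm-like cells Pcdh19 was higher in dual-enSERT-2, at 22.5 CPM in dual-enSERT-2 and 9.21 CPM in dual-enSERT-1, a ratio of 2.44 (1.74 to 3.47), and no measured member was lower, beside 1.95% higher and 2.42% lower of all measured features. Pcdh9 was lower there without reaching 2-fold (-0.91). In muscle-like cells Pcdh9 was lower (-1.38) on 10 UMIs in dual-enSERT-2 and 145 in dual-enSERT-1, and no measured member was higher, beside 4.68% lower and 2.64% higher of all measured features. In endothelial-like cells no measured member differed by 2-fold, beside 1.52% higher and 1.66% lower of all measured features. In macrophage-like cells (56 and 62 cells) Pcdh7 was 77.4 CPM in dual-enSERT-2 and 6.01 CPM in dual-enSERT-1. There Pcdh17 was 7.49 and 2.25 CPM, on 12 and 3 UMIs, and Pcdh19 6.24 and 0 CPM, on 10 and 0 UMIs. These 3 were more than 2-fold higher in dual-enSERT-2, and the share over all features was not taken for that class. Pcdh17 was higher in dual-enSERT-2 in 9 of 10 mesenchyme groups and lower in Isl1 cells (-0.97). For the X-linked Pcdh19, both embryos showed Y-linked transcripts, with Ddx3y at 48.0 CPM in dual-enSERT-2 and 49.9 CPM in dual-enSERT-1 and Uty at 81.0 CPM in dual-enSERT-2 and 97.6 CPM in dual-enSERT-1. Xist, the X-inactivation transcript of female cells, was near 0, at 0.926 CPM in dual-enSERT-2 and 0.0830 CPM in dual-enSERT-1. Of the listed partners, Dab1 was lower as well, at 10.8 CPM in dual-enSERT-2 and 55.4 CPM in dual-enSERT-1. With 1 embryo each, construct, embryo, exact stage and preparation cannot be told apart.

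**Figure D5:**
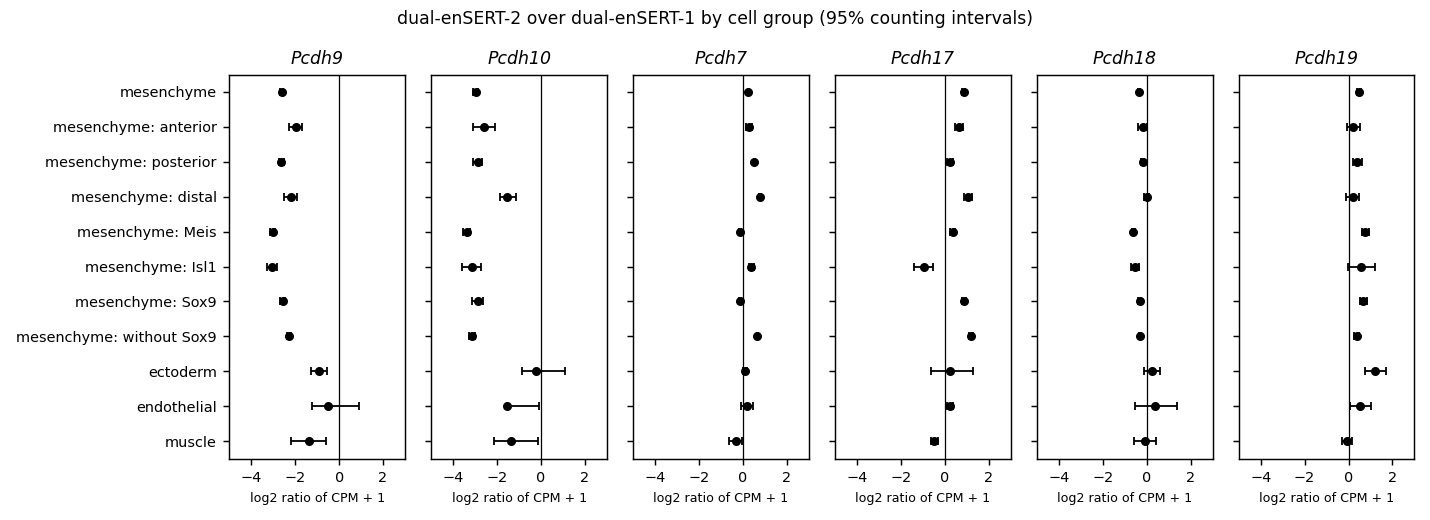
Log2 ratio of CPM with 1 CPM added, dual-enSERT-2 over dual-enSERT-1 (horizontal axes), for 6 of the genes in mesenchyme-like cells, groups of them and 3 other classes (rows), with 95% counting intervals. Pcdh9 and Pcdh10 lie left of 0 in every mesenchyme group shown, and Pcdh17 lies right of 0 in each but the Isl1 cells.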

How the data were processed

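Single-cell 3' RNA-seq (10x Chromium v3.1) was made from the hindlimbs of 2 embryos, 1 library each, with 10000 cells loaded, per the labels' protocols. The deposited values are raw UMI counts per gene and barcode. Cell Ranger 7.0.1 is named per the file headers, and Cell Ranger 3.1.0, Seurat 4 and mm39 per the submitters' processing notes. No source used here gives the annotation release, strand use or use of intronic reads, and 56236 of 56982 feature IDs were found in GENCODE M39.

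From these deposited counts, cells were required to show 1000 genes or more and a mitochondrial share of UMIs of 10% or less. Scrublet, in Scanpy 1.11.5, removed 211 doublets (3.16%) from dual-enSERT-2 and 1749 (9.83%) from dual-enSERT-1. Each library was clustered on its own with 2000 variable genes, 30 principal components, 15 neighbours and Leiden resolution 1, and clusters were named from marker lists. Groups of mesenchyme were set on cells thinned to 5000 UMIs, and levels were pooled over all UMIs of those cells as CPM. Log2 folds have 1 CPM added. The 95% intervals are exact Poisson for levels and Clopper-Pearson for ratios and shares. With 1 library per group no test was made. A gene was called at an absolute log2 fold of 1 in the same direction in both libraries.

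The members, the position genes and the gene lists were chosen with earlier results of these data known. Beside the members and the genes that set the groups, the text names the 3 genes of most similar pattern for each member, with at least 20 CPM in a group, and the listed genes that were called. Genes named from other lists are background. The calculations were tested on simulated data. Alternatives changed the cell filters, doublet removal, thinning, the UMIs that set a group, pooling and the pseudocount. Promoters are from RefSeq on GRCm38.p6, a build other than that of the counts, and were joined by symbol for 7 of 7 members. The other tools were Python 3.11.15 with pandas 2.3.3, SciPy 1.17.1, NumPy 2.4.6, igraph 0.11.9, scikit-learn 1.9.0 and matplotlib 3.10.9.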

Additional observations from a re-analysis of the deposited data

Results flagged for a closer look

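For 5 pairs of gene and contrast the log2 fold had opposite signs in the 2 embryos with both 95% counting intervals apart from 0, and for each the difference between embryos was not tested. With Meis, Pcdh17 stood at -0.21 in dual-enSERT-2 and 0.55 in dual-enSERT-1, Pcdh7 at -0.31 and 0.27, and Pcdh19 at 0.26 and -0.20. In anterior over posterior cells Pcdh9 stood at 0.53 in dual-enSERT-2 and -0.14 in dual-enSERT-1. In distal over other cells Pcdh7 stood at 0.54 in dual-enSERT-2 and -0.15 in dual-enSERT-1. None of these values reached 2-fold.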

How the results depend on the processing

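The 2 anterior genes, Pcdh17 and Pcdh19, passed under every alternative run, none of which split the anterior and posterior cells by Meis. Pcdh9 and Pcdh19 in distal cells also passed under every alternative, and Pcdh17 passed there as well with 2 UMIs needed to set a group. So did Pcdh9 and Pcdh10 between the libraries. With Meis the count was 1 at 2000 UMIs per cell and 1 without thinning, in place of 2, Pcdh10 missing the 5 CPM minimum without thinning. With Isl1 it was 0 with doublets kept, 0 with levels averaged over cells and 2 with 2 UMIs needed, in place of 1. With Sox9 it was 1 without thinning and 1 with 2 UMIs needed, in place of 0, and for eGFP alone it was 2 (Pcdh9 and Pcdh17) with 2 UMIs needed. Gene and class pairs numbered 2 with at least 2000 genes per cell and 2 with at most 5% mitochondrial UMIs, in place of 4, since dual-enSERT-2 then had no muscle-like cells. Pairs of genes seen together numbered 3 with doublets kept, 10 without thinning and 3 with unnamed clusters added, in place of 1. The log2 fold of Pcdh10 in Shh cells of dual-enSERT-1 turned to -0.23 at 2000 UMIs and -0.42 without thinning. The cause of the other changes was not tested.

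Of 172 alternative values of the folds that passed in both libraries or between them, 172 kept their sign, 168 stayed at 1 or more and 14 moved by more than 1.5-fold. Those folds had been called for their size. Over all members at 5 CPM or more there were 884 alternative values. Of these, 229 moved outside the counting interval of the main value, 2 reversed a fold of 1 or more and 653 stayed within it. With 2 UMIs needed, the anterior folds of dual-enSERT-2 were 3.25 for Pcdh17 and 3.57 for Pcdh19, and with doublets kept the distal fold of Pcdh9 in dual-enSERT-1 was -1.97. Leaving out the dual-enSERT-2 cluster with mitochondrial ribosomal RNAs among its leading genes, an alternative chosen after seeing the data, changed none of the 6 counts it was run for. No paired analysis was possible because each group is 1 library, so that the groups share only 1 replicate number and no fit was made. Depth limits Pcdh8 most, with 54 UMIs in dual-enSERT-2 mesenchyme.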
